A study of Mus musculus with 20 samples.

Results

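The cells described here are resting mouse bone marrow-derived macrophages, marrow cells kept for 6 days in medium that held M-CSF at 40 ng/ml and fetal calf serum at 10%, and left without further treatment. They were chosen by the sample titles: 5 of the 20 Illumina BeadChip arrays of the series carry the untreated label, and all 5 are used. The labels give C57BL/6 mice and an age of 10 to 15 months for these 5 samples. No genotype is given, although the study's design text speaks of mice lacking the LXR sterol receptors. The other 3 groups of the series received cholesterol crystals (200 ug for 3 h), cyclodextrin (10 mM for 6 h) or both, and no comparison with them was made. Whether the 5 replicates came from separate animals or cultures is not stated, so the spread between them may be partly technical.

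M-CSF acts through the receptor Csf1r and turns marrow precursors into adherent macrophages. Such cells take up particles and lipoproteins, digest them in acid lysosomes, and pass on or store the cholesterol they gain. They carry receptors for bacterial products and antibodies, and they can respond to interferon, a signal released during infection. Resting cultures are the baseline against which such responses are usually read.

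The arrays lay on 4 chips: replicate 1 on chip 1, replicate 2 on chip 2, replicate 3 on chip 4, and replicates 4 and 5 both on chip 5. The median bead signal of an array ranged from 93.9 to 121. Probes brighter than the negative control beads at a detection p below 0.05 made up 33.9 to 39.5% of the 45281 on an array. Levels are given on the log2 scale after background correction and quantile normalization (limma's neqc), with n = 5 arrays throughout. On this scale a difference of 1 is 2-fold. Undetected probes sat near 4.35, so a level there is no measured amount. A probe's level depends on its sequence as well as on the RNA, so ranks among genes order the brightness of probes and not the number of transcripts. Precision is limited by having 5 arrays, and with 1 group there is no contrast, so no test was run.

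In resting macrophages about as many of the named genes were detected on every array as were detected on none. Of 19057 genes with a named probe, 7952 (41.7%) were detected on all 5 arrays and 7618 (40.0%) on none. Another 3487 were detected on 1 to 4 arrays. Genes detected on all 5 arrays had a median level of 8.10, and genes detected on none had a median of 4.35. Mean levels reached 14.86, the value of Fth1, the heavy chain of the iron store ferritin.

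**Figure D1:**
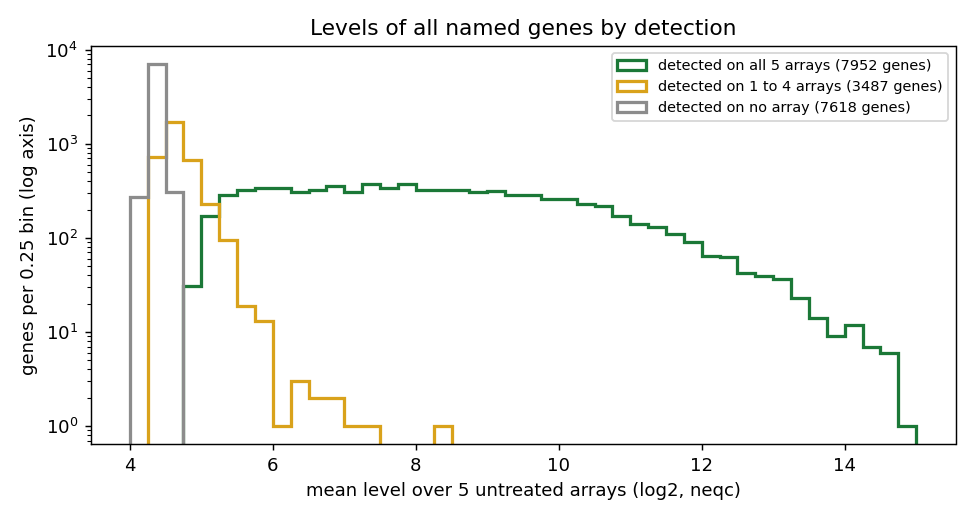
Distribution of the mean level of each named gene over the 5 untreated arrays (horizontal axis, log2) in bins of 0.25, with the number of genes on a log axis, separately for 7952 genes detected on all arrays, 3487 detected on some and 7618 detected on none. Undetected genes form a narrow peak around 4.35, while genes detected on all arrays spread from 4.83 to 14.86.

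The labelled cell type was checked against macrophage genes. Of 21 measured members of a list of macrophage identity genes, 18 were detected on all 5 arrays, against 41.7% of all genes, and their median level was 11.06. Apoe, the lipoprotein component that macrophages secrete to carry cholesterol away, lay at 12.85, 13.49, 13.75, 13.36 and 12.93 on replicates 1 to 5. Nr1h3, which encodes the sterol sensor LXR alpha, lay at 9.32, 9.83, 9.99, 9.72 and 9.36. Both genes were lower on replicates 1, 4 and 5 than on replicates 2 and 3, by little: their ranges were 0.90 and 0.67. Cx3cr1, the fractalkine receptor, ran the other way, with 10.39, 10.51 and 10.76 on replicates 1, 4 and 5 and with 9.70 and 9.90 on replicates 2 and 3. Cd14, the co-receptor for bacterial lipopolysaccharide, lay at 12.94, 13.02, 13.10, 13.69 and 12.87, with replicate 4 above the rest. Among all probes of an array, those of Apoe and Cd14 stood between the 99.5 and the 99.8 percentile of signal, and those of Nr1h3 and Cx3cr1 between the 92.7 and the 97.0 percentile.

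C1q, the recognition molecule that starts the classical complement pathway, is built from chains encoded by C1qa, C1qb and C1qc, and all 3 genes were lowest on replicate 3. C1qa lay at 10.45, 10.59, 8.60, 11.05 and 10.65 on replicates 1 to 5. C1qb lay at 13.21, 13.61, 11.43, 14.04 and 13.61. C1qc showed the smallest gap, with 12.60, 13.10, 11.97, 13.53 and 12.82. Replicate 3 thus held less C1q signal than the other 4 arrays for every chain, and replicate 4 held the most. As a group the identity genes were not steady: the median range of the 20 detected on at least 2 arrays was 0.94, against 0.57 over all genes, and 9 of them ranged at least 2-fold. The brightest probes of some were close between arrays. Adgre1, the F4/80 surface antigen, averaged 13.23 ± 0.109 (SD, n = 5), Csf1r averaged 12.76 ± 0.171, and Trem2, a lipid-sensing receptor, averaged 13.13 ± 0.166. A dimmer probe ranged by 1.10 for Adgre1 and by 1.54 for Csf1r.

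Some markers of macrophages resident in tissue were detected on fewer arrays, while Cx3cr1, Adgre1 and the 3 C1q genes were detected on all 5. Timd4, the receptor for phosphatidylserine on resident macrophages, was detected on no array. Cd163, the scavenger receptor for haemoglobin, was detected on 2. Vsig4, a complement receptor of resident macrophages, was detected on 4, with 6.75, 6.09 and 6.56 on replicates 1, 4 and 5 and with 4.53 and 4.95 on replicates 2 and 3. These 3 genes were singled out after their values were seen.

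**Figure D2:**
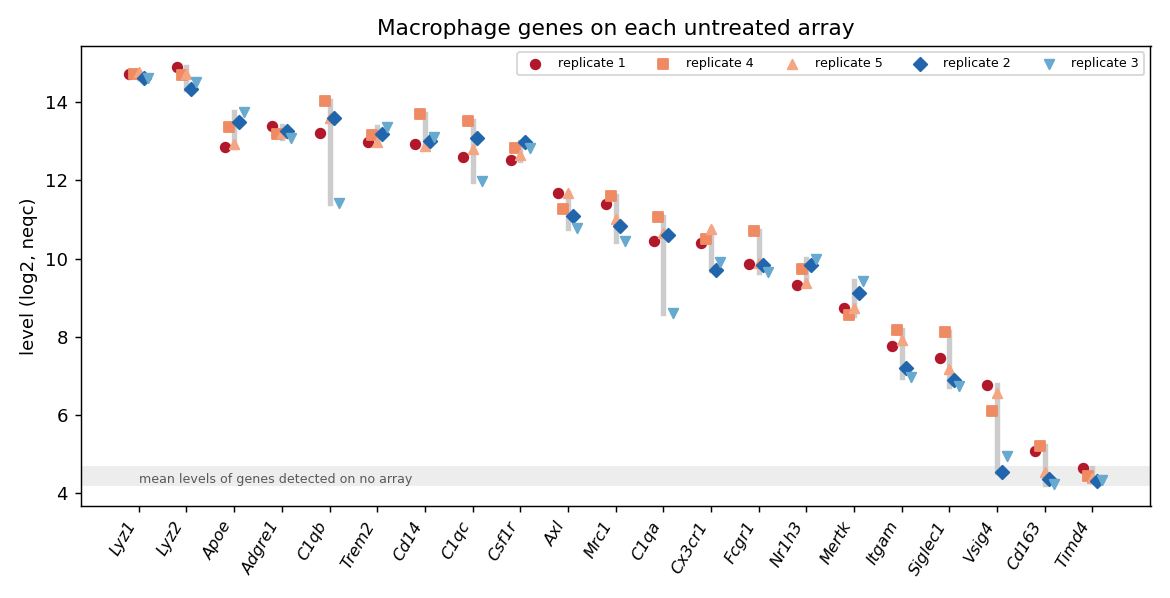
Level (log2) of the 21 measured macrophage identity genes on each untreated array, ordered by mean level. Points are single arrays, the grey line spans the lowest to the highest, and the band at the bottom covers the mean levels of genes detected on no array. All 3 C1q genes are lowest on replicate 3, and Timd4 lies in the band on every array.

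The brightest probes outside the ribosomal proteins belonged to genes of several kinds. In order of mean level, the 15 genes were Fth1, Lyz1, Eef1a1, Lyz2, Itm2b, Lpl, Laptm5, Tmsb4x, Psap, Lgals3, CYTB, Ctsb, Gpnmb, B2m and Cstb. Lyz1 and Lyz2, near-identical genes for the antibacterial enzyme lysozyme, averaged 14.69 ± 0.074 and 14.64 ± 0.218, and their probes may share target. Lpl, lipoprotein lipase, which frees fatty acids from lipoproteins, averaged 14.52 ± 0.179. Gpnmb, a glycoprotein of lysosomal membranes, averaged 14.20 ± 0.113, and Lgals3, the sugar-binding galectin-3, averaged 14.28 ± 0.087. The brightest probe of each of the 15 genes ranged by at most 0.57. Quantile normalization gives every array the same set of values, so probes that stay among the brightest can differ only little. Dimmer probes could range more: 3 further Gpnmb probes, detected on all 5 arrays, ranged by up to 1.85, and a second Lpl probe, detected on 4, ranged by 2.44, all lower on replicates 1, 4 and 5 than on replicates 2 and 3.

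The digestive machinery was detected almost in full. All 24 measured lysosome genes were detected on all 5 arrays, with a median level of 12.22, and so were 14 of 15 subunits and partners of the vacuolar proton pump, which acidifies the lysosome. Ctsb, a cysteine protease, averaged 14.22 ± 0.111, Psap, the precursor of sphingolipid activators, 14.41 ± 0.087, and Grn, progranulin, 13.60 ± 0.162. Of the 24 lysosome genes 6 ranged at least 2-fold, against 13.8% of all genes, and 2 of these ranged at least 4-fold, both proteases. Ctsl, cathepsin L, lay at 7.90, 8.44 and 7.57 on replicates 1, 4 and 5, against 10.53 and 10.91 on replicates 2 and 3. Ctsk, the collagen-degrading cathepsin K, lay at 7.61, 6.47 and 6.77 on replicates 1, 4 and 5, against 9.20 and 9.40 on replicates 2 and 3. In the proton pump 11 of 14 genes were lower on all of replicates 1, 4 and 5 than on replicates 2 and 3, against 18.9% of all genes. Another 2 were higher there, against 21.3% of all genes, and 1 overlapped. Atp6v1a, the catalytic subunit, showed the widest range, with 10.67, 10.19 and 9.72 against 11.86 and 11.14.

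Lipid handling genes were expressed unevenly. Of 18 measured genes of sterol efflux and lipoproteins, 13 were detected on all arrays and 4 on none. Lipa, the lysosomal lipase that frees cholesterol from its esters, averaged 13.15 ± 0.506, and Nceh1, a hydrolase of stored cholesterol esters, averaged 13.16 ± 0.305. Abcg1, a cholesterol exporter, was detected on every array at 7.88 ± 0.165. The probe of Abca1, the other main exporter, was detected on none, with a mean of 4.40. Apoc1, a small apolipoprotein encoded beside Apoe, was detected on 4 arrays, with 6.71, 6.59 and 6.43 on replicates 1, 4 and 5 and with 4.53 and 5.06 on replicates 2 and 3. Abcg1 and Abca1 were picked out after their values were seen. Cholesterol synthesis and uptake genes were detected on all arrays in 14 of 16 cases. Among them Sqle, squalene epoxidase, averaged 10.48 ± 0.264, Msmo1, a sterol methyl oxidase, averaged 11.16 ± 0.293, and the list's median range was 0.54.

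Receptors for microbes and antibodies were broadly present. Of 24 measured pattern recognition genes 19 were detected on all arrays, and of 16 Fc receptors and adaptors 14 were. Fcer1g and Tyrobp, the signalling adaptors of many activating receptors, averaged 14.10 ± 0.208 and 12.66 ± 0.168. Tlr2, the receptor for bacterial lipoproteins, averaged 11.79 ± 0.378, and Myd88, the adaptor of most Toll-like receptors, averaged 11.62 ± 0.116. Other receptors differed between arrays. Fcgr4, a receptor for IgG, lay at 11.62, 11.93 and 11.54 on replicates 1, 4 and 5, against 10.06 and 10.09 on replicates 2 and 3. Fpr2, a receptor for formylated peptides, lay at 8.49, 8.37 and 8.41 on replicates 1, 4 and 5, against 6.01 and 6.50 on replicates 2 and 3. Tlr5, the flagellin receptor, was detected only on replicates 1, 4 and 5, at 5.55, 7.66 and 6.55. In these 3 genes, named for their wide range, replicates 1, 4 and 5 did not overlap with replicates 2 and 3. Of 22 pattern recognition genes detected on at least 2 arrays, 9 lay above on replicates 1, 4 and 5 and 3 lay below. Of 15 Fc receptors and adaptors, 4 lay above and 3 below. Over all genes the shares were 21.3 and 18.9%.

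Of 20 measured inflammatory mediators 14 were detected on all arrays and 4 on none. The 4 were Il6, Nos2, Ptgs2 and Il12a, products of activated macrophages, named after their values were seen. Casp1, the protease that cleaves pro-interleukin-1 beta, was detected on all arrays at 11.88 ± 0.266. Il1b itself lay at 8.90, 10.11 and 8.68 on replicates 1, 4 and 5, against 5.24 and 5.59 on replicates 2 and 3, a 29.4-fold range. It was detected on all 5 arrays and high on those of 1 side only. Ccl5, a chemokine that attracts T cells, lay at 7.90, 8.27 and 7.66 on replicates 1, 4 and 5, against 6.12 and 5.66 on replicates 2 and 3. Tnf, picked out after its values were seen, went the other way, at 7.60, 7.54 and 7.71 against 8.35 and 8.17. Of the alternative activation list 7 of 16 genes (43.8%) were detected on all arrays, near the 41.7% of all genes. They included Mrc1, the mannose receptor, at 11.06 ± 0.453, and Tgm2, a transglutaminase, at 13.01 ± 0.330. Arg1, arginase 1, was detected on 3 arrays and Retnla, a secreted resistin-like protein, on none, both named after their values were seen.

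The listed genes of the ribosome and the respiratory chain varied little between arrays. Of 9775 genes detected on at least 2 arrays, 3934 (40.2%) ranged by under 0.5 log2, and the median range was 0.57 with a median SD of 0.234. Cytosolic ribosomal protein genes had a median range of 0.31, and respiratory chain genes one of 0.36. The ribosomal list had a median level of 13.12, and bright probes can differ only little after quantile normalization. Rpl29, a ribosomal protein gene that is not among those counted, ranged by 2.00. Glycolysis, stress response, cell cycle and cytoskeleton genes had median ranges of 0.56, 0.56, 0.65 and 0.67, against 0.57 for all genes. Among the genes with the highest 25% of mean levels, the smallest ranges were those of Ggnbp2 at 0.04, Akirin1, Glud1 and Mcl1 at 0.06 each, and Rps4x at 0.07. Mcl1, a survival factor of the Bcl-2 family, lay between 12.68 and 12.74 on the 5 arrays, and Glud1, mitochondrial glutamate dehydrogenase, lay between 11.55 and 11.61. These are values of the brightest probe, and other Glud1 probes ranged by 0.57 and 1.18.

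At the other end, 1353 genes (13.8%) ranged at least 2-fold over the 5 arrays and 120 (1.23%) at least 4-fold. The genes of widest range mostly followed a single division of the arrays. In 115 of the 120 genes that ranged at least 4-fold, all levels on replicates 1, 4 and 5 lay above or all lay below those on replicates 2 and 3: 61 above and 54 below. The 1353 genes that ranged at least 2-fold followed it less often: 472 lay above, 443 lay below and 438 overlapped. Over all 9775 genes, 2078 (21.3%) lay above and 1852 (18.9%) below, together 40.2%. This division was known from earlier results on sex-linked genes of these data, so the counts are a description. Single pairs of arrays give the same picture: 41 genes differed at least 2-fold between replicates 2 and 3, and 76 to 178 did within replicates 1, 4 and 5. Across the division the number was 437 to 591. Replicates 4 and 5 lay on the same chip and still differed at least 2-fold in 145 genes, more than replicates 2 and 3, which lay on different chips. Every chip with untreated arrays held them from only 1 side of the division, so chip and division cannot be told apart.

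The genes with the largest SD were led by sex-linked genes. Xist, the RNA that silences an X chromosome in female cells, lay at 11.17, 11.22 and 11.00 on replicates 1, 4 and 5, against 4.31 and 4.34 on replicates 2 and 3, where it was not detected. Eif2s3y, a translation factor gene of the Y chromosome, lay at 4.39, 4.25 and 4.25 on replicates 1, 4 and 5, undetected, against 10.81 and 10.65 on replicates 2 and 3. Kdm5d, a Y-linked histone demethylase, lay at 4.18, 4.68 and 4.20, undetected, against 8.17 and 7.68. Each of these 3 genes was thus at background on 1 side of the division and well above it on the other. Uty, also Y-linked, was at 4.97, 4.72 and 4.55 against 6.41 and 6.12. This probe was detected on 3 arrays, and the other Uty probes were detected on none. The X-linked partners Eif2s3x and Kdm6a went the way of Xist by less: Eif2s3x lay at 10.38, 10.50 and 10.52 against 9.74 and 9.63, and Kdm6a at 9.47, 9.83 and 9.28 against 9.01 and 8.90. A second bright Xist probe showed the same split, with 11.16, 11.09 and 11.06 against 4.27 and 4.30. Each of the 6 sex chromosome genes measured was thus split between the same arrays, and the labels give no sex.

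The remaining genes of largest SD were autosomal. Clones without a gene name were passed over, 1 of which, 2610035D17Rik, stood at place 20 by SD. Of the 20 genes with the largest SD among the rest, 9 lay above on replicates 1, 4 and 5, 10 lay below, and 1 overlapped. Trim30a, an interferon-inducible regulator of innate signalling, lay at 9.52, 9.59 and 9.45 on replicates 1, 4 and 5, against 4.42 and 4.27 on replicates 2 and 3, undetected. Thumpd1, an RNA-binding protein involved in tRNA modification, lay at 9.30, 9.21 and 9.18, against 4.15 and 4.28, undetected. Hpgd, the enzyme that inactivates prostaglandins, lay at 10.37, 9.70 and 10.06, against 6.89 and 6.61. In Trim30a and Thumpd1 the arrays of a side lay close together. Cap1, an actin-regulating protein, went the other way, at 9.58, 9.63 and 9.46 against 12.48 and 13.08. P2ry1, a receptor for ADP, lay at 6.48, 5.75 and 5.43 against 9.03 and 8.94. Pdpn, the membrane protein podoplanin, lay at 7.69, 7.02 and 7.42 against 10.04 and 10.27. None of these 3 overlapped between the sides. Slpi, a secreted inhibitor of proteases, lay lower on replicates 1, 4 and 5 as well, at 6.64, 6.01 and 6.42 against 8.57 and 9.62.

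Some of these genes also varied within a side of the division. Cops8, a subunit of the COP9 signalosome, was low at 4.87 on replicate 2 alone, while the other 4 arrays lay between 9.25 and 9.53. It was detected on all 5 arrays. Pclaf, a PCNA-binding factor of DNA replication, lay at 9.11, 9.17 and 9.50 on replicates 1, 4 and 5, at 7.95 on replicate 2 and at 5.43 on replicate 3. Anpep, an aminopeptidase of the cell surface, was spread within a side, at 6.55, 8.81 and 7.41 on replicates 1, 4 and 5 against 10.26 and 9.92 on replicates 2 and 3. In the authors' table, in which 17 of these 20 genes ranged by under 1 log2 unit, Il1b, Anpep and P2ry1 kept ranges of 3.52, 2.59 and 1.55. Xist ranged by 0.18 in the authors' table.

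**Figure D3:**
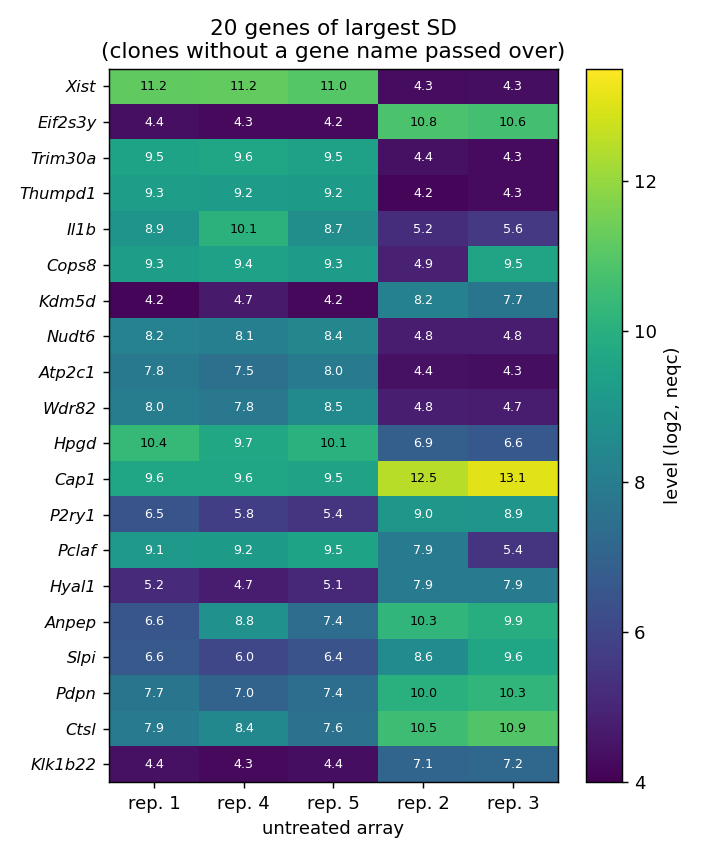
Level (log2, colour and number) of the 20 genes with the largest SD over the untreated arrays, clones without a gene name passed over, with replicates 1, 4 and 5 on the left and replicates 2 and 3 on the right. In all rows but that of Cops8 the 3 left columns lie wholly above or wholly below the 2 right columns.

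Some genes were detected on 1 side of the division and not on the other. At any range, 1283 genes were detected on 2 or 3 arrays. Of these, 39 were detected on replicates 1, 4 and 5 only and 228 on replicates 2 and 3 only. Replicates 2 and 3 detected more probes of every kind, 38.8 and 39.5%, against 35.7, 36.0 and 33.9% on replicates 1, 4 and 5. The part of this difference in the 2 counts was not tested. Among genes ranging at least 4-fold, 10 were detected on replicates 1, 4 and 5 and on neither of the others, and 8 on replicates 2 and 3 only. The first group holds Xist, Trim30a, Thumpd1, Atp2c1, Marco, Pik3r4, Pnpla1, Rab6b, Tlr5 and 1 clone without a gene name. The second group holds Eif2s3y, Kdm5d, Klk1b22, Atp6v0e2, Cpne8, Cptp, Ighg1 and Zfp985. Several were named here after their values were seen. A second probe did not always repeat the pattern. Atp2c1, a calcium and manganese pump of the Golgi, lay at 7.84, 7.53 and 7.97 on replicates 1, 4 and 5, against 4.43 and 4.34, but another detected probe for it stayed within 0.36 over all 5 arrays. Of the 120 genes ranging at least 4-fold, 43 had a second detected probe. In 28 of them the second probe moved the same way by at least 50% of the first probe's difference, in 14 by less, and in 1 it moved at least that far the opposite way.

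Genes ranging at least 4-fold lay unevenly over the chromosomes, as placed by the RefSeq annotation. Chromosome 9 held 14 among its 557 detected genes (2.51%), chromosome 12 held 8 of 325 (2.46%), chromosome 7 held 16 of 739 (2.17%) and chromosome 4 held 13 of 601 (2.16%), against 1.23% of all placed genes. On the Y chromosome 2 of 4 genes, Eif2s3y and Kdm5d, ranged as widely. Chromosome 10 held 2 of 486 (0.412%) and chromosome 5 held 3 of 648 (0.463%). Close neighbours made up part of these counts. Within 50 neighbouring detected genes on chromosome 9 lay Rab6b, Atp2c1, Pik3r4, Wdr82, Rpl29 and Hyal1, and on chromosome 7 a like stretch held Serpinh1, Tpbgl, Slco2b1, Folr2, Trim34a and Trim30a. On chromosome 4, C1qb, C1qa, Pdpn, Zfp985 and Zfp979 fell within 50 neighbouring genes. Neighbours did not all lie to the same side: Rpl29, a ribosomal protein, lay higher on replicates 1, 4 and 5 (12.57, 12.38 and 12.54 against 10.69 and 10.56), while Hyal1, a hyaluronidase, lay lower there (5.18, 4.74 and 5.09 against 7.91 and 7.93). Folr2, a folate receptor of macrophages, was higher on replicates 1, 4 and 5, at 11.79, 11.96 and 11.61 against 9.85 and 9.68. These neighbours were named after their values were seen, and no placement was tested.

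**Figure D4:**
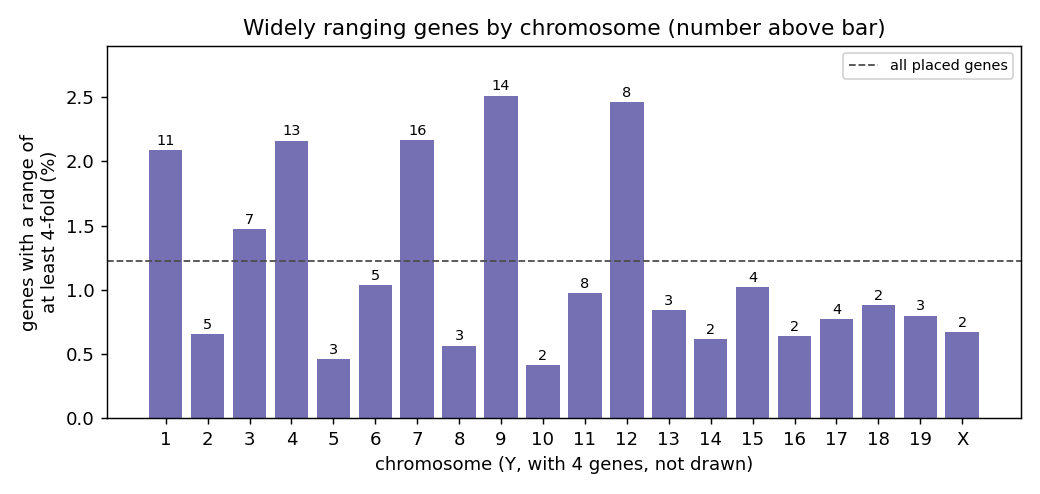
Share of genes detected on at least 2 untreated arrays that ranged at least 4-fold, by chromosome, with the number of such genes above each bar and the share of all placed genes, 1.23%, as a dashed line. Of the chromosomes drawn, which leave out Y with its 4 genes, 9, 12, 7, 4 and 1 stand highest, between 2.09 and 2.51%.

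Interferon-stimulated genes differed between the arrays as a group, and not only across the division. Of 27 measured, 19 were detected on all arrays, and 13 of the 21 detected on at least 2 arrays ranged at least 2-fold, against 13.8% of all genes. In 13 of the 21 all levels on replicates 1, 4 and 5 lay above those on replicates 2 and 3, against 21.3% of all genes, and in none did they lie below. Replicate 4 was the highest array for 15 of the 21 and replicate 3 the lowest for 15, while over all genes those shares were 19.8 and 19.2%. The list's median deviation from each gene's mean was 0.41, 0.54 and -0.05 on replicates 1, 4 and 5 and was -0.27 and -0.51 on replicates 2 and 3, so replicate 5 sat in between. Ifit3, an antiviral RNA-binding protein, lay at 10.21, 10.88 and 9.89 on replicates 1, 4 and 5, against 9.17 and 8.34 on replicates 2 and 3. Irf7, the transcription factor that amplifies interferon production, lay at 7.28, 8.32 and 7.25 against 6.50 and 6.03. Oasl2, an antiviral protein of the oligoadenylate synthetase family, lay at 11.08, 11.41 and 10.72 against 10.38 and 9.65. Not all members varied: Irgm1, an interferon-inducible GTPase, stayed within 0.45, and Irf9, part of the factor ISGF3, within 0.41.

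Many interferon-stimulated genes carry a pair of TTTC repeats, or GAAA on the other strand, near the start site, where interferon-activated factors bind. The motif, TTTC followed by any 2 bases and TTTC again, was searched on both strands in the RefSeq promoters (250 bases before to 50 after the start, GRCm38.p6). It was found in 12 of 22 measured interferon-stimulated genes with a promoter in the table (54.5%), against 3.49% of all 27025 genes with one. Among the genes ranging at least 4-fold, it was found in 10 of 53 promoters of those higher on replicates 1, 4 and 5 (18.9%) and in 0 of 46 of those lower there. The promoters of 4 genes with a match are printed to show the motif, in capitals, at its distance from the start. Among the other interferon-stimulated genes named above, Irf7 and Oasl2, which were divided, held no match. Irgm1, which varied little, held the motif, and Irf9, which also varied little, did not. Overlapping matches run together in Isg15, where they lie on the GAAA strand.
Ifit3, chr19:34583279-34583578, + strand: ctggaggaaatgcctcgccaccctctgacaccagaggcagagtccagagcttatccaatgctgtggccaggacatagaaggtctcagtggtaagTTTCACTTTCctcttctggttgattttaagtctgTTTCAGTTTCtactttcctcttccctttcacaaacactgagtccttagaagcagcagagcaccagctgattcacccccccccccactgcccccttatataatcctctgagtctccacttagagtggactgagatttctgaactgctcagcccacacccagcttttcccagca
Rsad2, chr12:26456403-26456702, - strand: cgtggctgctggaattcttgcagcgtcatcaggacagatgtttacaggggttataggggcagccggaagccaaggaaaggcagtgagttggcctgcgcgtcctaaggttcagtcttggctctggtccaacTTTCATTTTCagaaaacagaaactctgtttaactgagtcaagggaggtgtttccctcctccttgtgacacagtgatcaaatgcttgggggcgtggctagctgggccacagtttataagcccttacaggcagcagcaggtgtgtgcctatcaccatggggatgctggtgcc
Isg15, chr4:156200769-156201068, - strand: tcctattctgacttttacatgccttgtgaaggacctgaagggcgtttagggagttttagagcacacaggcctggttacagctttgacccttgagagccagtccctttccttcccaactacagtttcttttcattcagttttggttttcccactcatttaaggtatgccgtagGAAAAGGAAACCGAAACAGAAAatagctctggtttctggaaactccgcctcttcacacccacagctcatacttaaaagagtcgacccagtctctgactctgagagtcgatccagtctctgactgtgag
Trim30a, chr7:104465144-104465443, - strand: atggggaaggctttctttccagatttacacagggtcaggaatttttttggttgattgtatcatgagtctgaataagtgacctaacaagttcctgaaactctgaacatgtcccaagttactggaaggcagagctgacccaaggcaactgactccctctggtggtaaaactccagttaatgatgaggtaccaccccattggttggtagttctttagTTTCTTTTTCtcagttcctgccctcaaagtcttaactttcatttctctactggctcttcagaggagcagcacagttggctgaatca

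The first match starts 156 bases before the start site in Ifit3, 120 before it in Rsad2, 78 before it in Isg15 and 36 before it in Trim30a. Rsad2, the antiviral enzyme viperin, lay at 9.05, 9.20 and 8.40 on replicates 1, 4 and 5, against 8.18 and 7.51 on replicates 2 and 3. Isg15, a ubiquitin-like protein, lay at 7.25, 7.55 and 6.68 against 6.36 and 6.32. Rsad2 and Isg15 were picked for printing after their values were seen. A match is a run of letters and not a shown binding site. Other motifs were searched too: GAGGAAGT, a PU.1-like motif, was in 231 of 6550 promoters of genes detected on all arrays (3.53%) and in 140 of 5933 of genes detected on none (2.36%). TGANTCA, an AP-1-like motif, was in 4.64 and 9.32% of these, and an NF-kB-like motif (GGGA, any base, TTTCC) in 0.427 and 0.371%. The AP-1-like motif was also in 7 of 22 promoters of interferon-stimulated genes (31.8%), against 7.93% of all promoters. The PU.1-like motif was in 0 of those 22. Among genes of 4-fold range it was in 6 of 46 promoters of those lower on replicates 1, 4 and 5 (13%). It was also in 4 of 53 of those higher there (7.55%), and its share over all promoters was 3.28%.

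Stromal and matrix genes ran against the interferon genes. Of 13 fibroblast and stromal markers, 7 were detected on all arrays (53.8%), against 41.7% of all genes. Of the 11 detected on at least 2 arrays, 8 lay lower on replicates 1, 4 and 5, against 18.9% of all genes. None lay higher. Col1a1, a chain of type I collagen, lay at 6.63, 6.56 and 6.81 on replicates 1, 4 and 5, against 8.62 and 7.79 on replicates 2 and 3. Col1a2, the other chain of that collagen, overlapped between the sides, at 5.60, 5.45 and 5.93 against 6.22 and 5.07. Acta2, smooth muscle actin, lay at 10.51, 9.53 and 10.08 against 11.87 and 11.42, and its 3 other detected probes were split the same way. Dcn, the matrix proteoglycan decorin, lay at 9.24, 8.59 and 8.87 against 10.40 and 9.75. The summed bead signal of the 13 markers above each array's median was 2681, 1367 and 1157 on replicates 1, 4 and 5, against 5785 and 4642 on replicates 2 and 3. This sum is of signal that was not normalized, and it rests mostly on Acta2 and Dcn. On replicate 2 their bead signals were 3535 and 1346. Thy1 and Postn, markers of stromal cells, were detected on no array. In RNA of a whole culture fewer cells of a type and less RNA per cell cannot be told apart.

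Matrix and protease genes were divided mostly the same way as the stromal markers. Among 18 matrix and protease genes detected on at least 2 arrays, 11 ranged at least 2-fold, against 13.8% of all genes. On replicates 1, 4 and 5, 10 lay lower, against 18.9% of all genes, and 4 lay higher, against 21.3%. Mmp12, the macrophage elastase, lay at 9.59, 8.49 and 8.78 on replicates 1, 4 and 5, against 10.55 and 10.36 on replicates 2 and 3. Plau, urokinase, lay at 5.78, 5.42 and 4.69 against 6.71 and 6.72. Sparc and Fn1 stand on both the matrix list and a cell type list. The part of stromal cells in the spread of these genes was not tested.

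**Figure D5:**
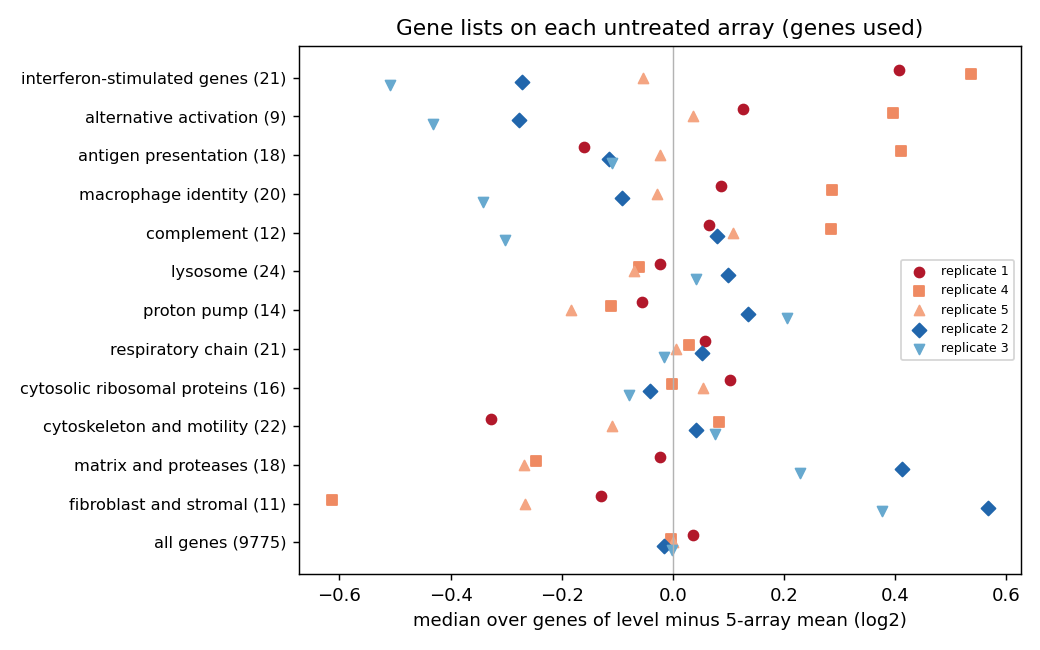
Median over the genes of a list of the level minus that gene's mean over 5 arrays (log2), for each untreated array, with the number of genes used in brackets. Interferon-stimulated genes run from -0.51 on replicate 3 to 0.54 on replicate 4, fibroblast and stromal markers from -0.61 on replicate 4 to 0.57 on replicate 2, and all genes stay within 0.04 of 0.

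Replicate 4 was often the highest array in several lists besides the interferon-stimulated genes. It was highest for 11 of 18 antigen presentation, 10 of 22 cytoskeleton, 7 of 12 complement, 7 of 15 Fc receptor and adaptor and 9 of 20 macrophage identity genes, against 19.8% of all genes. Cd74, the chaperone of MHC class II, lay at 10.54, 11.62, 11.89, 12.24 and 11.11 on replicates 1 to 5. H2-Ab1, a class II chain, lay at 10.58, 11.05, 11.12, 12.06 and 10.91. Cd86, a co-stimulatory ligand for T cells, lay at 9.49, 8.93, 9.06, 10.61 and 9.69. B2m, the light chain of class I, did not share this: it stayed within 0.12. Replicate 1 was the lowest array for 12 of the 22 cytoskeleton genes, against 18.3% of all genes, with Arpc4, a subunit of the actin-nucleating Arp2/3 complex, at 9.11 there and between 9.73 and 10.69 on the others. A second Arpc4 probe was instead highest on replicate 1, at 6.65, and lowest at 6.01.

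Most markers of other blood and tissue cells were not detected on all arrays. None of 12 dendritic cell, 10 mast cell and basophil, 8 erythroid or 8 hepatocyte markers was detected on all 5 arrays. A single marker was for B cells (Blnk, of 8), for T and NK cells (Cd8b1, of 10) and for neurons (Syp, of 8). Of 14 neutrophil markers 2 were detected on all arrays (Csf3r and S100a8). Cd8b1, which encodes a chain of the T cell co-receptor CD8, lay at 9.70 ± 0.379 on 1 of its 3 probes, and the other 2 probes were detected on no array, while 5 of the 10 T and NK markers were detected on no array. Osteoclast markers were detected on all arrays in 4 of 10 cases (Ctsk, Dcstamp, Mmp9 and Nfatc1), and monocyte markers in 4 of 9 (F13a1, Fn1, Plac8 and S100a4), both near the 41.7% of all genes. The platelet list gave 2 of 7, Pf4 and Vwf, and the endothelial list gave 3 of 10, Eng, Pecam1 and Vwf. Pf4, a chemokine stored in platelets, lay at 11.07, 10.48 and 10.84 on replicates 1, 4 and 5, against 10.22 and 9.84 on replicates 2 and 3.

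Genes of DNA replication and the cell cycle were mostly detected in the resting culture. Of 27 measured cell cycle genes, 22 were detected on all arrays, with a median level of 8.07. Mcm4, Mcm5 and Mcm6, subunits of the replicative helicase, averaged 11.06 ± 0.319, 10.40 ± 0.220 and 10.55 ± 0.452. Ccnd1, cyclin D1, which M-CSF is known to induce, averaged 11.33 ± 0.229. Pcna, the sliding clamp of DNA replication, ranged more, at 7.79, 8.24, 7.21, 6.67 and 7.79 on replicates 1 to 5, in an order other than that of the main division.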

How the data were processed

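Biotin-labelled cRNA made from total RNA of 20 macrophage samples was measured on Illumina mouse BeadChips, per the labels' protocols. The deposited file holds bead signal intensity per probe and array, not background-corrected or normalized, per the file headers and values. It also holds a detection p-value, deposited beside each signal. A second deposited table gives the authors' processed values on a log2 scale (Partek per the submitters' processing notes, steps not given in the sources used here). Its 5 untreated columns have medians of 6.71, each matching its own array best.

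Intensities of all 20 arrays were processed together with neqc (limma 3.58.1, R 4.3.3, offset of 16), which subtracts background inferred from the detection p, quantile normalizes and takes log2. The offset compresses ranges of dim genes. The 5 untreated arrays were then described in Python 3.11.15.

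Of 45281 probes, 34885 had 1 symbol in the platform annotation, 18 several and 10378 none. The named probe with the highest mean stood for its gene. Promoters and chromosomes came from RefSeq (GRCm38.p6); motifs were searched separately on both strands. Ranges were counted among genes detected on at least 2 arrays. The counting was checked on simulated data.

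Named genes were 5 given markers, up to 4 brightest and 2 widest per list, 20 of largest SD (clones without a gene name passed over), 15 brightest, 5 of smallest range, sex chromosome genes, and cell type markers detected on all arrays. Members, lists and the division of the arrays were chosen with earlier results of these data known. List genes with no named probe were not analysed here.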

Additional observations from a re-analysis of the deposited data

Results flagged for a closer look

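Among 207 named genes, 142 ranged by at least 0.5 log2 and were screened for a single array far from the other 4 (Dixon's ratio above 0.71, which chance passes in about 1 of 20 groups), and 4 passed. C1qa was lowest on replicate 3, at 8.60 (log2), and the other C1q chains were lowest there too. Cd14 was highest on replicate 4, at 13.69. Cops8 was lowest on replicate 2, at 4.87, with a gap of 0.94 of the whole range. Trf, which encodes the iron carrier transferrin, was highest on replicate 4, at 12.09, against 10.95 to 11.27 on the other arrays. No cause was tested.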

How the results depend on the processing

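The count of 7952 genes detected on all arrays moved least. It was 7560 at detection p below 0.01, 7958 with any probe of the gene and 7993 to 8255 with an array left out. Counting probes in place of genes gave 11667. The counts of ranging genes depended on how background is treated. For a range of at least 2-fold (1353 genes), the count was 362 by quantile normalization without background correction and 3640 with normexp and scale normalization. Counting detected probes in place of genes gave 2174. The gene count was 583 with an offset of 50, 154 in the authors' value table and 731 for an SD of at least 0.5. It was 338 over replicates 1, 4 and 5 alone and 41 over replicates 2 and 3 alone, both chosen after seeing the data, and 1020 to 1069 with an array left out. For a range of at least 4-fold (120 genes, alternatives added after seeing the data), it was 28 by quantile normalization alone, 52 with an offset of 50, 40 on unnormalized signal, 8 in the authors' table, 179 with normexp and scale normalization, and 80 to 116 with an array left out. Leaving out replicate 2 or replicate 3 gave the 80. Of the 120 genes themselves, 4 still ranged at least 4-fold in the authors' table and 15 at least 2-fold. By quantile normalization alone these numbers were 28 and 96. For genes not overlapping between replicates 1, 4, 5 and 2, 3 (3930), counting detected probes in place of genes gave 5965. The gene count was 2377 in the authors' table, 1754 on unnormalized signal, and 4668 to 5753 with an array left out. Fewer arrays leave fewer values that could overlap. Of the 115 genes of 4-fold range that were divided, 115 kept their direction by quantile normalization alone and 109 with scale normalization, while 51 did in the authors' table and 3 were divided the opposite way. The cause was not tested. Of the 207 named genes, the range moved by over 1 SD in 122 in the authors' table, 105 on unnormalized signal, 98 with scale normalization, 34 by quantile normalization alone and 10 with an offset of 50; leaving out an array did so in 9 to 24. Mean levels moved by over 1 SD in 5 to 40 of the 207 under these settings and in none with an array left out. No paired analysis was possible because only 1 group was described and no result came from a test. Signal over background limits the dimmest genes: a level near 4.35 gives no amount, and 40 of the 120 genes of 4-fold range were undetected on at least 1 array.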
